A study of Rattus norvegicus with 125 samples.

Results

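The 8 Slc22 organic ion transporters Slc22a2, Slc22a4, Slc22a5, Slc22a6, Slc22a7, Slc22a8, Slc22a12 and Slc22a13 were taken by symbol from a deposited expression table of the rat nephron, in which they are 8 of 17144 gene symbols. RNA had been sequenced from pieces of tubule, dissected after collagenase digestion of the left kidney of adult male Sprague-Dawley rats of 200 to 250 g on normal chow. There were 7 libraries each of the proximal tubule segments S1, S2 and S3 and 84 libraries of 11 segments further along the nephron: SDL (10), LDLOM (9), LDLIM (4), tAL (7), mTAL (7), cTAL (7), DCT (8), CNT (6), CCD (11), OMCD (7) and IMCD (8). These are the descending limb of short loops, that of long loops in the outer and inner medulla, the thin ascending limb, the medullary and cortical thick ascending limb, the distal convoluted tubule, the connecting tubule and the cortical, outer medullary and inner medullary collecting duct. A set of 5 glomerulus libraries came from adult male Sprague-Dawley rats whose labels carry the protocol text of the water-load experiment, so that their own treatment is not clear from the labels. In that experiment 5-week-old male Sprague-Dawley rats all carried a subcutaneous minipump giving the vasopressin analogue ddAVP at 5 ng/hr, and were given gelled food with either 50 mL of water a day (water-loaded, 4 CCD libraries) or 25 mL a day (control, 4 CCD libraries) over 4 days. The water-load labels name a rat for each library. Replicates of the tubule segments and the glomerulus are only numbered, with no word on whether each is from another rat, so their tests rest on library-to-library spread that is possibly technical.

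Slc22 proteins are transporters of the plasma membrane that move charged small molecules, among them drugs, metabolites and toxins. In the proximal tubule, basolateral members take organic cations and anions up from the blood, the anions in exchange for dicarboxylates such as α-ketoglutarate, and apical members exchange urate and other anions with the tubular fluid or recover carnitine from it. Together with efflux pumps of the brush border they carry out the renal secretion of many drugs and the reabsorption of urate.

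Levels are given in RPKM, a read density scaled to transcript length and to the reads of each library, and come from the first of 2 deposited tables. The tables differ by a near-constant factor for some members, so the order of members by level depends on the table, as given at the end. Tests were run on log2(RPKM + 1), so that fold changes of low genes are understated. Tests other than that of the water load used 1 spread per gene, pooled over all segments. For members that vary more in S1, S2 or S3 than elsewhere, this makes the SE and adjusted p between those segments too small. The tables hold no read counts, so no counting intervals can be given. The number of genes at 1 RPKM or more ran from 1438 to 8574 in tubule libraries and from 2066 to 7778 in the 21 proximal ones, whose relative depth spanned 10.7-fold over the 20 libraries where it could be estimated. In a piece of tissue, fewer cells of a type and less RNA per cell cannot be told apart.

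The proximal labels were checked against markers of the segments. Slc7a7, a basolateral amino acid transporter of the early proximal tubule, stood at 65.3 RPKM or more in all 7 S1 libraries, at 71.3 RPKM or less in S2 and at 0.164 RPKM or less in all S3 libraries but replicate 5, which had 354 RPKM. Slc7a13, an amino acid transporter of the late proximal tubule, was at 475 RPKM or more in every S3 library, between 0.0586 and 784 RPKM in S2, and at 0 to 4.99 RPKM in all S1 libraries but replicate 5, with 207 RPKM. Slc5a1, a glucose cotransporter of the late segment, did not pass 1.56 RPKM in any of the 21. S3 replicate 5 also held 449 RPKM of the thick limb marker Umod and 65.8 RPKM of the DCT marker Slc12a3. S3 replicate 7 had the lowest summed level of 10 proximal tubule markers, 1060 RPKM, against a range up to 29160 RPKM. Its thin limb markers summed to 3607 RPKM, the highest of S3, against an S3 median of 151.3 RPKM. Over 11070 genes without the transporters, the closest library was one of the same segment for 8 of the 21 proximal libraries, one of another proximal segment for 11 and one outside the proximal tubule for 2 (S1 replicate 7 and S3 replicate 7). S1 replicate 6 and S2 replicate 6 correlated at r = 0.938 across genes, the highest of 5460 pairs of tubule libraries, and shared high Slc5a2 (1418 and 649 RPKM), the glucose cotransporter of the early segment. Leukocyte markers were not evenly spread. Their summed level was 58.6 to 1958 RPKM in S1, 293 to 2495 in S2 and 27.2 to 958 in S3, with Cd74 medians of 581, 684 and 109 RPKM in S1, S2 and S3, while the defining leukocyte gene Ptprc was at 0 in 4 of 7, 4 of 7 and 6 of 7 libraries of S1, S2 and S3. Their part in the results below was not tested.

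Most of the family was RNA of the proximal tubule. Of the 8 transporters, 5 were called higher in S1, S2 and S3 together than in the other 11 segments (adjusted p under 0.05 and a log2 difference of at least 1), which was the case for 6.87% of the 11078 genes tested, and 0 were called lower, against 15.4% of all genes. All 8 passed the filter on low values (1 RPKM in at least 4 libraries), but Slc22a7 and Slc22a13 only through the S3 libraries where they are high, with 2 and 3 libraries at 1 RPKM outside S3, so the counts of calls that hold them are a description. The organic cation transporter gene Slc22a2 (OCT2) and the organic anion transporter genes Slc22a6 (OAT1) and Slc22a8 (OAT3) had the highest proximal medians in the first table, followed by the urate transporter gene Slc22a12 (URAT1). The carnitine and ergothioneine transporter genes Slc22a5 (OCTN2) and Slc22a4 (OCTN1) did not pass the test.

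Slc22a2 had a median of 50.0 RPKM in the 21 proximal libraries, where 19 libraries reached 1 RPKM and the highest stood at 671 RPKM, against a median of 0.0221 RPKM in the 84 other tubule libraries, where 10 reached 1 RPKM and the highest stood at 113 RPKM. Its log2 difference was 5.44 ± 0.35 (SE), with an adjusted p of 9.0e-28 by limma's moderated test. Slc22a6 reached 1 RPKM in 19 of 21 proximal libraries, with a median of 56.3 RPKM, against 9 of 84 others, with a median of 0.0105 RPKM. Its difference was 5.06 ± 0.34 (adjusted p = 3.4e-26, limma). Slc22a8 reached 1 RPKM in 16 of 21 proximal libraries, with a median of 78.6 RPKM, against 14 of 84 others, with a median of 0 RPKM, and differed by 4.76 ± 0.37 (adjusted p = 8.7e-22, limma). For each of the 3 genes the proximal and the other libraries overlapped, since single proximal libraries were near 0 and single libraries elsewhere were high.

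Slc22a12, the apical exchanger that reabsorbs urate, had a median of 13.2 RPKM in proximal libraries, 19 of 21 of which reached 1 RPKM, against a median of 0.00635 RPKM and 7 of 84 elsewhere. It differed by 4.00 ± 0.28 (adjusted p = 7.5e-25, limma). Slc22a13, a nicotinate and urate exchanger (OAT10), was low throughout, with a median of 0 RPKM in both classes, 7 of 21 proximal libraries and 1 of 84 others at 1 RPKM, and a difference of 1.08 ± 0.17 (adjusted p = 9.6e-08, limma). Slc22a7, the organic anion transporter gene OAT2, reached 1 RPKM in 5 of 21 proximal libraries and in 1 of 84 others. Its adjusted p was 8.9e-06, but the difference of 0.79 ± 0.15 missed the limit of 1. It was called with a pseudocount of 0.1, at 1.61.

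Slc22a5, the sodium-dependent carnitine transporter, reached 1 RPKM in 14 of 21 proximal libraries (median 3.94 RPKM) and in 37 of 84 others (median 0.165 RPKM). Its highest value of all lay outside the proximal tubule, at 154 RPKM in LDLOM replicate 4. The difference of 1.16 ± 0.49 had an adjusted p of 0.063 (limma) and was called under 3 other settings, at 1.72 after quantile normalization, 1.44 with the number of detected genes as a covariate and 1.38 without the 14 libraries under 2500 genes. Slc22a4, an ergothioneine transporter, had 5 of 21 proximal libraries and 17 of 84 others at 1 RPKM and differed by -0.06 ± 0.33 (adjusted p = 0.89, limma). The sign of that difference turned to 0.06 and 0.09 with quantile normalization and with the covariate. Over all tested genes the median log2 difference was -0.36, beside 2.58 over the 8 members, and calls were 761 higher and 1711 lower, but 1008 higher and 939 lower after quantile normalization and 915 higher and 1254 lower with the covariate. In the same comparison 3 of 6 leukocyte markers were called higher in the proximal tubule, led by Cd74 (2.82 ± 0.57).

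**Figure D1:**
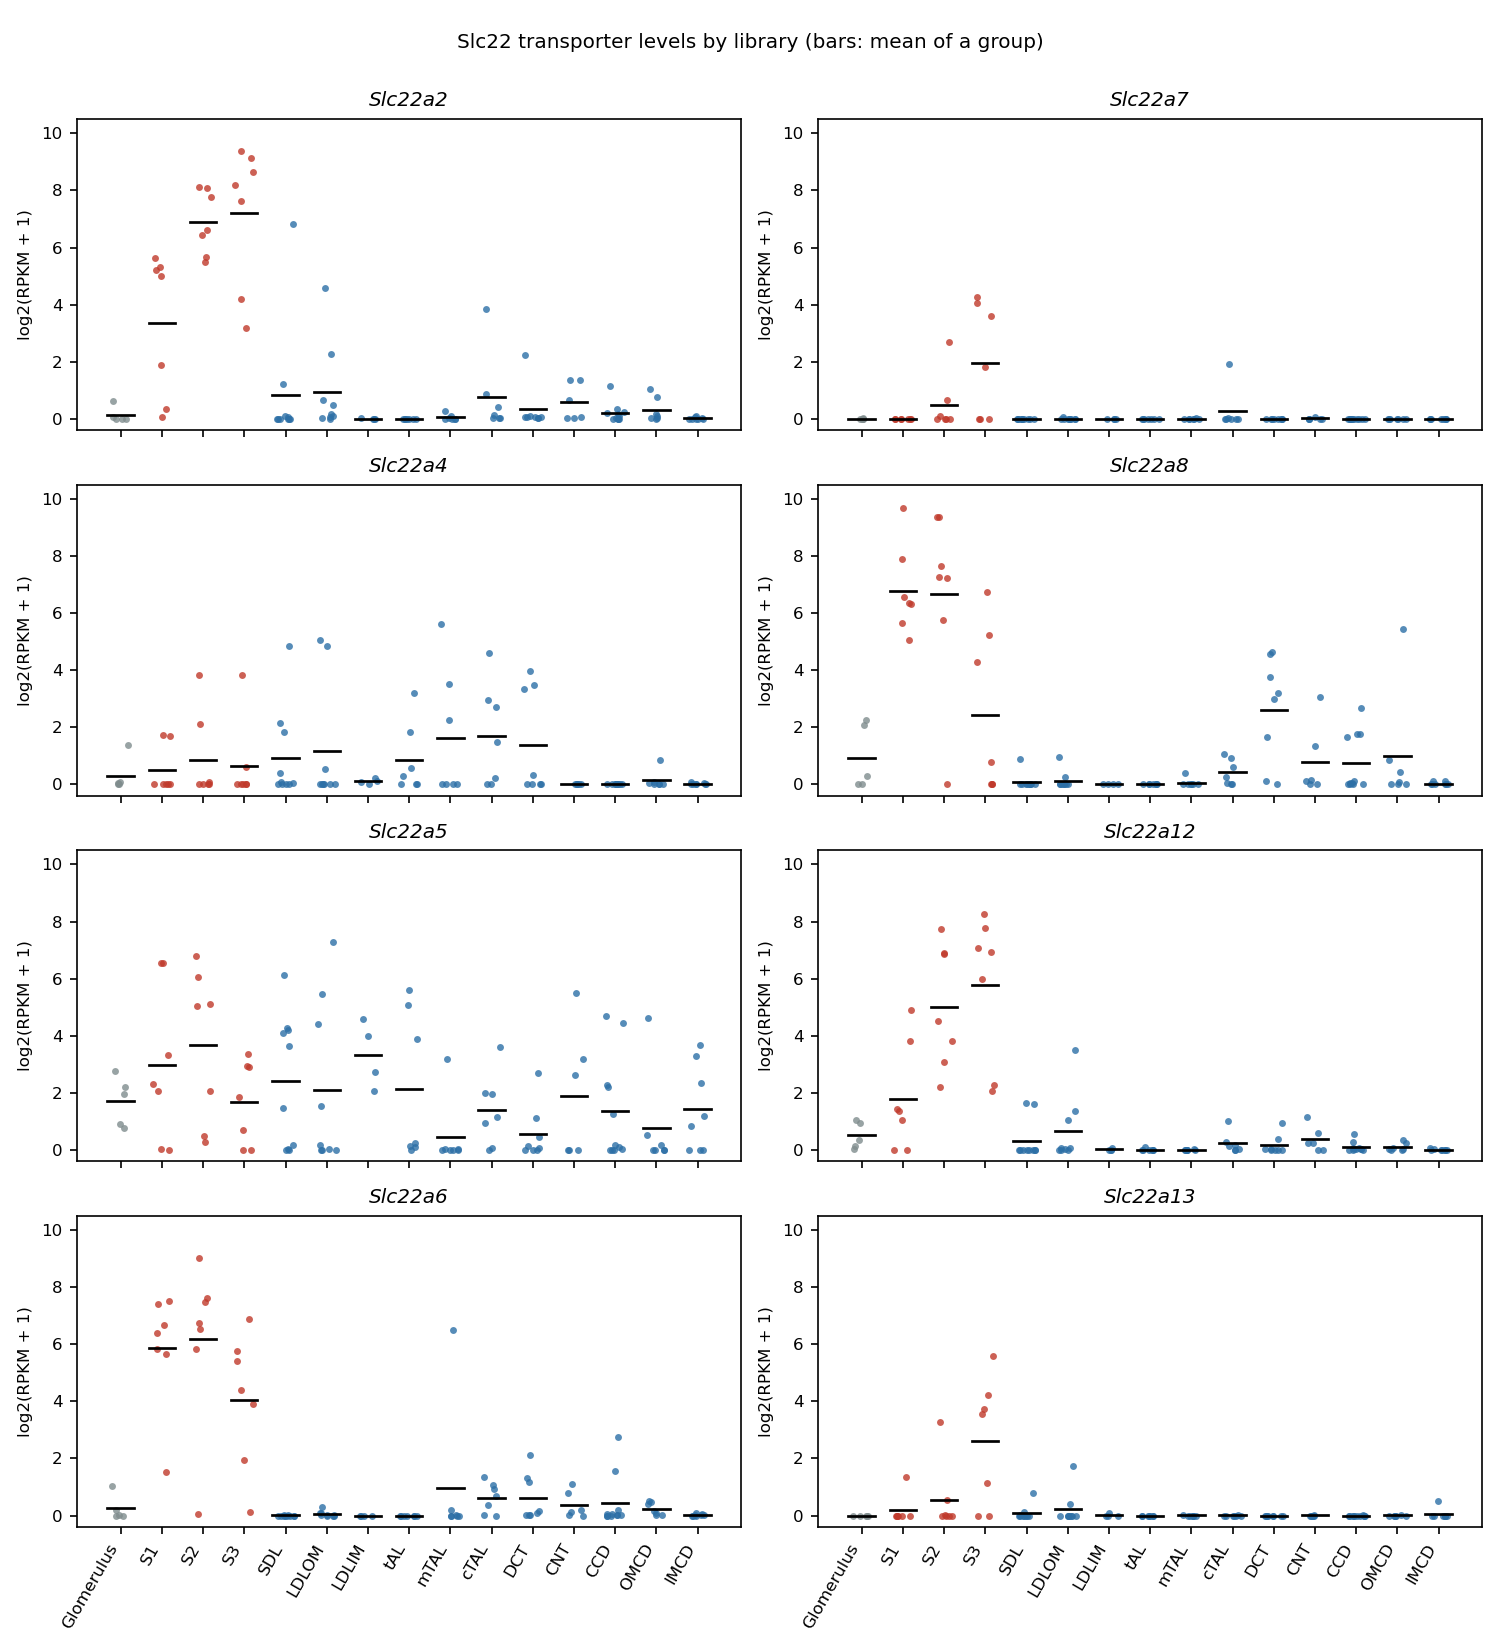
Each point is 1 library, on a log2(RPKM + 1) axis, for the glomerulus (grey), the 3 proximal segments (red) and the 11 other segments (blue), and the bar is the mean of a group. Slc22a2, Slc22a6, Slc22a8 and Slc22a12 stand out in S1 to S3, Slc22a7 and Slc22a13 in S3, while Slc22a4 and Slc22a5 scatter over many segments.

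Ordered by mean log2 level, S3, S2 and S1 led for Slc22a2 at 7.19, 6.88 and 3.36, with the next segment, LDLOM, at 0.92. Neighbours in that order differed by more than the pooled SD within segments, 1.34, from S2 to S1 and from S1 to LDLOM, but not from S3 to S2. Slc22a12 had the same order, with 5.76, 5.01 and 1.80 and a pooled SD of 1.08, and again S3 and S2 did not differ beyond it. For Slc22a6 the order was S2, S1 and S3 at 6.18, 5.85 and 4.06, and for Slc22a8 it was S1 and S2 at 6.79 and 6.66, with DCT (2.61) and S3 (2.43) after them. S1 and S2 did not differ beyond the pooled SD for either gene, 1.32 and 1.46, nor did DCT and S3 for Slc22a8. Slc22a7 and Slc22a13 were highest in S3, at 1.97 and 2.61, and exceeded their next segment, S2 for both, by more than the pooled SD. That SD, 0.60 and 0.69, is lowered by segments where both genes are near 0. The gaps from S3 to S2, 1.47 and 2.06, were below the SD within S3, 2.001 and 2.216. For Slc22a2 the gap from S1 to LDLOM, 2.43, was likewise below the SD within S1, 2.485. For Slc22a4, led by cTAL at 1.71, mTAL at 1.63 and DCT at 1.39, and for Slc22a5, led by S2 at 3.69, LDLIM at 3.34 and S1 at 2.97, no neighbouring segments differed beyond the pooled SD.

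The promoters of the members that scatter over segments and of those high in the proximal tubule differ in base composition, and 4 of them are shown for that reason. They are taken from RefSeq's table for build GRCr8, which is not the build of the expression tables, and each runs from 250 bases before to 50 bases after the start of the gene, 5′ to 3′, with CG dinucleotides in capitals. The first pair belongs to genes high in the proximal tubule and the second to Slc22a5 and Slc22a4.
Slc22a8, chr1:214927034-214927333, plus strand: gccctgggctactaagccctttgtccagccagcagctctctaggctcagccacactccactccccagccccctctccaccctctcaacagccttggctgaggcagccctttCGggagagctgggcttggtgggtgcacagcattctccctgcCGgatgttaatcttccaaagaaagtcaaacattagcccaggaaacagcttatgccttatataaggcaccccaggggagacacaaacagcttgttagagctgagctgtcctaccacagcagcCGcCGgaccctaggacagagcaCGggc
Slc22a12, chr1:213281331-213281630, minus strand: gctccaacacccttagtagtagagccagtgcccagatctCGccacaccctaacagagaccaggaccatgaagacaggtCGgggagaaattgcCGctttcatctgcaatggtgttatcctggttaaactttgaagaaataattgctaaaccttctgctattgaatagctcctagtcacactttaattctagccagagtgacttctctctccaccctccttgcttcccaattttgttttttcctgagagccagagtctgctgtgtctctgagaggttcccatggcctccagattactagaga
Slc22a5, chr10:38536023-38536322, minus strand: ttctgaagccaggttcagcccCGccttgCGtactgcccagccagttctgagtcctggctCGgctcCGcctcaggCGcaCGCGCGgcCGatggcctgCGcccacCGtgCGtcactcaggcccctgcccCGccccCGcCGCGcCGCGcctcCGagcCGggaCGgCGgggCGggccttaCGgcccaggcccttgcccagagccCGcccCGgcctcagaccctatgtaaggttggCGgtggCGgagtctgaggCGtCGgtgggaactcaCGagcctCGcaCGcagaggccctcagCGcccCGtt
Slc22a4, chr10:38679871-38680170, minus strand: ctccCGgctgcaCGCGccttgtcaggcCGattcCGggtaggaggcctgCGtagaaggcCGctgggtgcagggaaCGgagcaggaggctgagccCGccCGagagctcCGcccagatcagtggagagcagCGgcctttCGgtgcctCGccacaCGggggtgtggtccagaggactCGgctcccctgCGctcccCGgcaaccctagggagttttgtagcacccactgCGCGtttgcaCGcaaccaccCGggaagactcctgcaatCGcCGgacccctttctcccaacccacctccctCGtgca

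Of the 8 members 7 had an entry in that table, Slc22a6 being the other. The Slc22a5 window held 35 CG dinucleotides, a number reached by 6.13% of the 33469 promoters of the table, and the Slc22a4 window held 25, reached by 16.6%. The other 5 windows held 7 in Slc22a2, 5 in Slc22a7, 5 in Slc22a8, 3 in Slc22a12 and 1 in Slc22a13, against a median of 7 over all promoters. Whether CG content bears on the levels along the segments was not tested. In the same assembly Slc22a8 and Slc22a6 are neighbouring protein-coding genes on chromosome 1, and Slc22a5 and Slc22a4 lie on either side of Slc22a21 on chromosome 10.

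Between S1 and S2 the cation and the urate transporter changed. Slc22a2 and Slc22a12 were lower in S1, 2 of the 8 members, whereas 0.46% of all genes tested were called lower in S1. None of the 8 was called higher in S1, as were 0.135% of all genes, and by unadjusted p under 0.05 there was no member higher in S1 either. Slc22a2 ran from 0.0576 to 48.8 RPKM in S1, with a median of 31.1 RPKM, and from 43.7 to 275 RPKM in S2, with a median of 96.5 RPKM. Only S1 replicate 5 lay above the lowest S2 library. The log2 difference was -3.52 ± 0.75 (adjusted p = 0.0029, limma). Slc22a12 ran from 0 to 28.6 RPKM in S1 (median 1.56) and from 3.61 to 213 RPKM in S2 (median 21.6), with a difference of -3.22 ± 0.61 (adjusted p = 4.5e-04, limma). Of the S1 libraries, replicates 3 and 5 fell within the S2 range.

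The secretory anion transporters did not pass the test between S1 and S2. Slc22a6 ran from 1.87 to 180.2 RPKM in S1 (median 82.7) and from 0.0429 to 518 RPKM in S2 (median 105.3), a difference of -0.33 ± 0.74 (adjusted p = 1, limma). Slc22a8 ran from 32.5 to 825 RPKM in S1 (median 80.7) and from 0.0152 to 664 RPKM in S2 (median 152), a difference of 0.13 ± 0.80 (adjusted p = 1, limma). Its sign turned to -0.05 after quantile normalization and to -0.69 without the libraries under 2500 genes. The other 4 members had an adjusted p of 1 (limma). S2 replicate 4, with 2195 genes at 1 RPKM, was near 0 for both anion transporters while holding 218 RPKM of Slc22a2. The summed proximal markers were 6188 to 16140 RPKM in S1 and 6809 to 29160 RPKM in S2. Without S1 replicate 6 and S2 replicate 6, left out after their likeness was seen, the 2 calls held, at -4.05 for Slc22a2 and -3.42 for Slc22a12. Slc22a2 lost its call with a pseudocount of 0.1 (adjusted p = 0.11) and without the libraries under 2500 genes (adjusted p = 0.15), and in a fit of the 2 groups alone both lost it (adjusted p = 0.30 for Slc22a2 and 0.81 for Slc22a12, limma).

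Between S2 and S3 the anion transporter Slc22a8 was called, and 2 low genes were called in the opposite direction. Slc22a8 was higher in S2, 1 member of 8, against 0.659% of all genes called higher in S2. Slc22a13 and Slc22a7 were lower in S2, 2 members of 8, against 0.226% of all genes. Both had entered the test only through their S3 libraries, so their calls are a description and nothing is read from that count. In S2 Slc22a8 had a median of 152 RPKM, and in S3 it measured 0.0116, 0, 0.728, 36.2, 107, 18.3 and 0 RPKM. The 3 S3 libraries above 1 RPKM included replicate 5, the one with high Slc7a7, Umod and Slc12a3. The log2 difference was 4.23 ± 0.80 (adjusted p = 2.5e-04, limma), and it ran from 3.78 to 5.34 when single libraries were left out.

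Slc22a13 measured 0, 0, 0, 0, 8.71, 0.0146 and 0.447 RPKM in S2, against 47.4, 1.21, 12.2, 10.8, 0, 17.7 and 0 RPKM in S3. It was thus above 1 RPKM in 1 S2 library and in 5 S3 libraries, and the 2 S3 libraries at 0 were replicates 5 and 7. The difference was -2.06 ± 0.37 (adjusted p = 7.6e-05, limma). Slc22a7 measured 0.595, 0, 0, 0, 0, 0.0663 and 5.40 RPKM in S2, against 18.2, 0, 11.3, 15.8, 0, 2.53 and 0 RPKM in S3, a difference of -1.47 ± 0.32 (adjusted p = 0.0029, limma). Its call was lost without S3 replicate 1 (adjusted p = 0.069) or S3 replicate 4 (adjusted p = 0.057). As the 4 S3 libraries with Slc22a7 above 1 RPKM also held Slc22a13 above 1 RPKM, the pair was present or near 0 in the same S3 libraries but for replicate 2. In S2 this was not so, as Slc22a13 passed 1 RPKM only in replicate 5 and Slc22a7 only in replicate 7.

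Slc22a6 had a median of 105.3 RPKM in S2 and of 19.9 RPKM in S3, where it ran from 0.102 to 117 RPKM. Its difference of 2.12 ± 0.74 was not called (adjusted p = 0.27, limma), but it was 3.14 and called without S2 replicate 4 (adjusted p = 0.0020) and without the libraries under 2500 genes (adjusted p = 0.0019). Slc22a5 had medians of 32.3 RPKM in S2 and 2.61 RPKM in S3, and its difference of 2.01 ± 1.06 did not pass the test (adjusted p = 1, limma). Slc22a2 and Slc22a12 did not pass it either, with medians of 96.5 RPKM in S2 against 294 RPKM in S3 for Slc22a2 and 21.6 RPKM in S2 against 120.5 RPKM in S3 for Slc22a12. In a fit of the 2 groups alone, 0 of the 8 members and 10 of all genes were called, while 413 genes had an unadjusted p under 0.05 (limma). There the adjusted p was 0.11 for Slc22a8, 0.71 for Slc22a13 and 0.76 for Slc22a7 (limma). The leukocyte marker C1qb was also higher in S2 (4.23 ± 0.92), 1 of 6 of that list. All genes gave 73 calls higher and 25 lower, 72 and 40 after quantile normalization, and the all-gene median difference was 0.11.

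Between S1 and S3, the ends of the proximal tubule, Slc22a8, Slc22a2 and Slc22a12 changed, and the low genes Slc22a7 and Slc22a13 were called as well. Slc22a8 was higher in S1, 1 of 8, against 0.912% of all genes. Slc22a2, Slc22a12, Slc22a13 and Slc22a7 were lower in S1, 4 of 8, against 0.966% of all genes. As Slc22a7 and Slc22a13 again were tested only because of S3, their calls are a description and nothing is read from that count. Slc22a8 differed by 4.35 ± 0.80 (adjusted p = 5.7e-05, limma), with a median of 80.7 RPKM in S1 and 0.728 RPKM in S3. Slc22a2 differed by -3.83 ± 0.75 (adjusted p = 1.9e-04), with medians of 31.1 RPKM in S1 and 294 RPKM in S3, and Slc22a12 by -3.97 ± 0.61 (adjusted p = 5.7e-07, both limma), with medians of 1.56 RPKM in S1 and 120.5 RPKM in S3. S3 replicates 5 and 7 had 17.2 and 7.99 RPKM of Slc22a2 and 3.17 and 3.79 RPKM of Slc22a12, within the range of S1. Slc22a7 was at 0 in all 7 S1 libraries, and Slc22a13 was at 0 in 6 of them and at 1.53 RPKM in replicate 6. Their differences were -1.97 ± 0.32 (adjusted p = 3.6e-06) for Slc22a7 and -2.42 ± 0.37 (adjusted p = 4.2e-07, limma) for Slc22a13. Slc22a6 differed by 1.79 ± 0.74 without a call (adjusted p = 0.36, limma) and was called at 2.51 without S1 replicate 4 (adjusted p = 0.043). In a fit of the 2 groups alone Slc22a8 kept its call, and the adjusted p of the others was 0.052 for Slc22a2, 0.057 for Slc22a12, 0.22 for Slc22a7 and 0.25 for Slc22a13. The 3 comparisons share libraries, so they are not independent of each other.

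**Figure D2:**
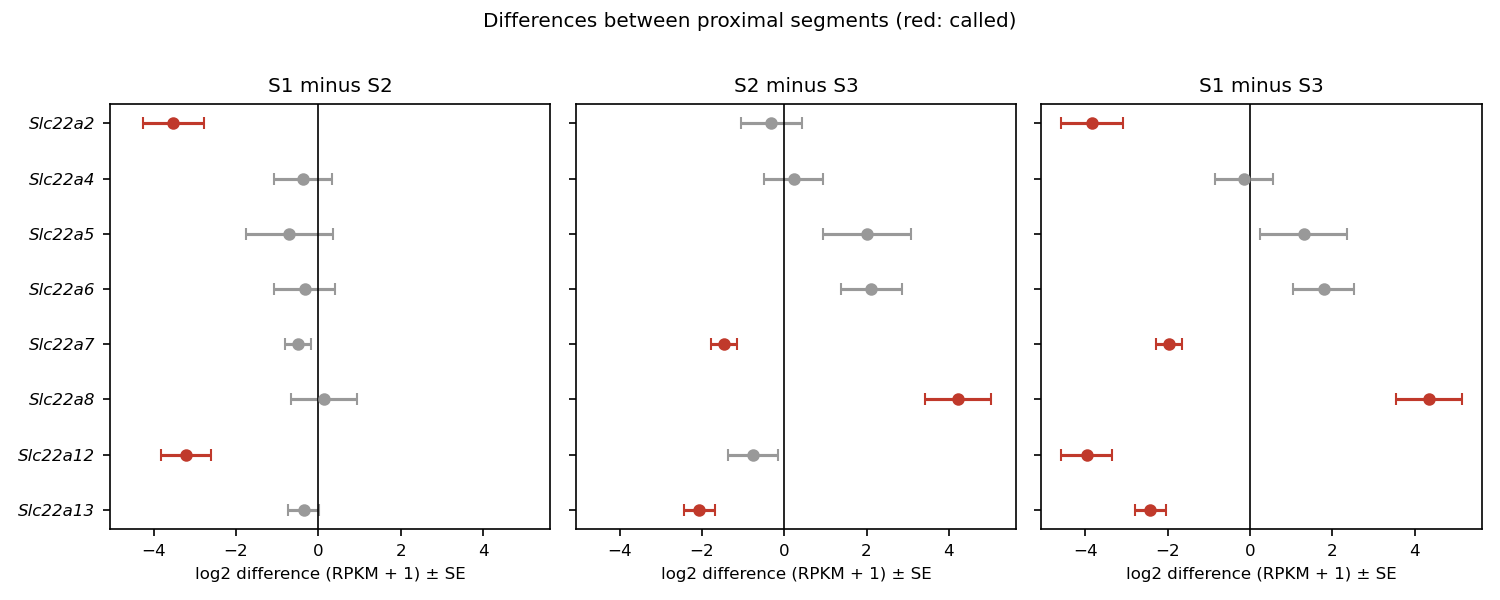
Points give the difference in mean log2(RPKM + 1) of the first segment minus the second (n = 7 libraries a segment), red where called. Bars are limma's standard error, for which the spread of a gene was pooled over all segments. They do not show the spread within the segments compared, and are too small for members that vary more there than elsewhere. Slc22a2 and Slc22a12 lie at -3.52 and -3.22 for S1 minus S2 and Slc22a8 at 4.23 for S2 minus S3, while Slc22a6 was not called in any of the 3 panels.

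Within a library, the make-up of the transporter RNA needs no scaling between libraries, but it depends on the table. In the first table Slc22a8 made up a median of 49.8% of the summed RPKM of the 8 members in S1 and 28.3% in S2, but 0.11% in S3. Slc22a2 made up 3.68%, 16.3% and 56.0%, and Slc22a12 0.372%, 8.35% and 17.8% in S1, S2 and S3. The share of Slc22a6 had medians of 27.6%, 21.7% and 5.66%. The leading member was Slc22a8 in 4 S1 libraries, in 4 S2 libraries and in 1 S3 library, replicate 5. Slc22a2 led in 0 S1, 3 S2 and 5 S3 libraries, Slc22a6 in 2 S1 libraries, and Slc22a5 in 1, where it held 30.3%. In S3 replicate 7 Slc22a4 led with 47.7%, but the 8 members summed to only 28.0 RPKM there, the lowest of the 21 libraries. In the second table the median share of Slc22a8 was 38.6%, 23.9% and 0.108%, that of Slc22a6 44.1%, 32.8% and 11.5%, that of Slc22a2 2.21%, 9.40% and 39.8% and that of Slc22a12 0.475%, 13.5% and 32.9% in S1, S2 and S3. There Slc22a6 led in 5 S1 and 4 S2 libraries and Slc22a8 in 2 S1, 1 S2 and 1 S3 library. Slc22a2 led in 1 S2 and 2 S3 libraries, Slc22a12 in 1 S2 and 3 S3 libraries, and Slc22a4 in 1 S3 library. In both tables the median shares of Slc22a2 and Slc22a12 were lowest in S1 and highest in S3, and those of Slc22a8 the reverse. Which member led a library differed between tables. These shares repeat the levels already given and were not tested.

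**Figure D3:**
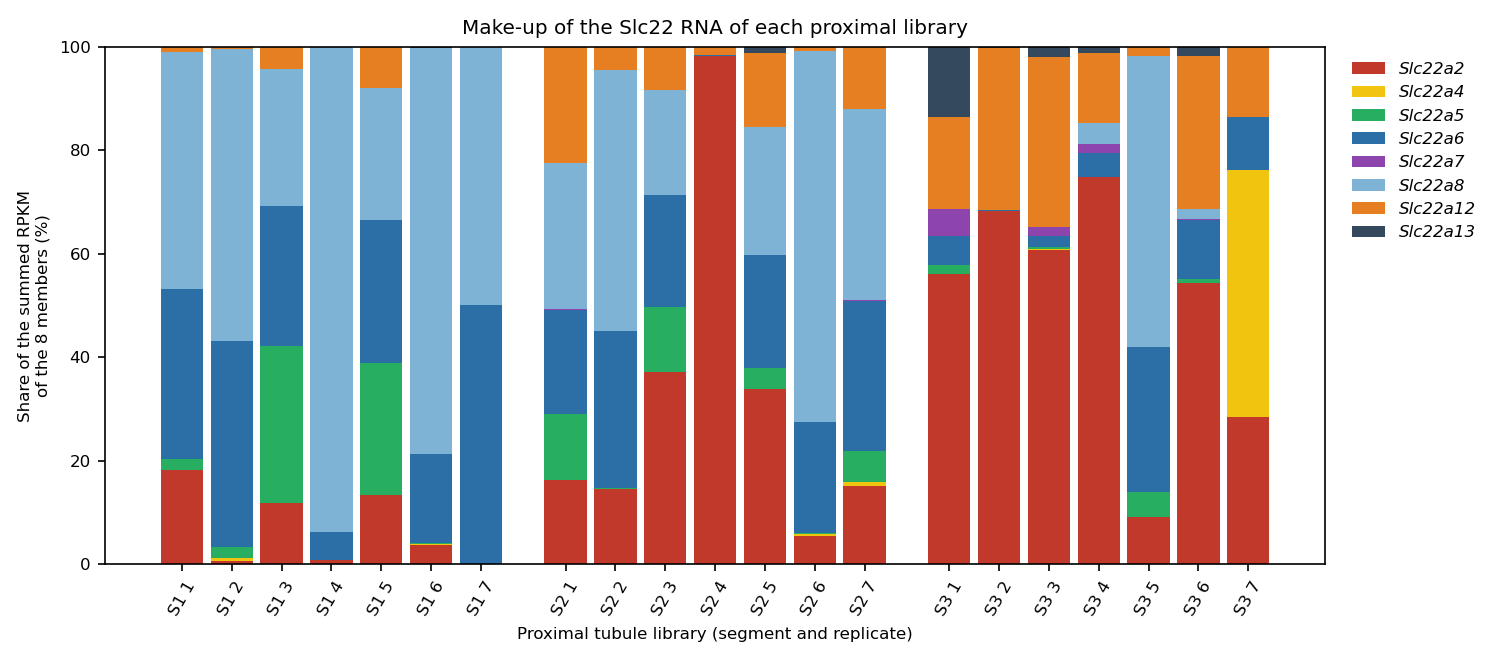
Bars show, for each of the 21 proximal libraries, the share of the summed RPKM of the 8 members held by each member in the first table, in percent. Slc22a8 and Slc22a6 fill most of the S1 bars and Slc22a2 and Slc22a12 most of the S3 bars, with S3 replicate 5 (Slc22a8 at 56.4%) and S2 replicate 4 (Slc22a2 at 98.3%) unlike their neighbours.

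Outside the proximal tubule the 4 members with the highest proximal medians, Slc22a2, Slc22a6, Slc22a8 and Slc22a12, were found in a minority of libraries, though in most libraries of some segments. Their summed level reached 1 RPKM in 30 of 84 libraries, among them 6 of 8 DCT, 6 of 11 CCD, 5 of 7 cTAL, 4 of 7 OMCD, 3 of 6 CNT, 3 of 9 LDLOM, 2 of 10 SDL and 1 of 7 mTAL libraries, but 0 of LDLIM, tAL and IMCD. In the 30 libraries the 10 proximal tubule markers summed to a median of 164 RPKM (range 14.6 to 831), against a median of 19.4 RPKM (range 0.194 to 3624) in the other 54, and to 1060 to 29160 RPKM in the proximal libraries. The part of proximal RNA in these levels was not tested. Single libraries carried single members. SDL replicate 8 had 113 RPKM of Slc22a2 with 0 RPKM of Slc22a6 and Slc22a8, beside 185.6 RPKM of summed proximal and 65.5 RPKM of late proximal markers (SDL medians 19.4 and 0.0735 RPKM). In mTAL replicate 3 Slc22a6 was at 90.3 RPKM with 0 RPKM of Slc22a2, Slc22a8 and Slc22a12, and the second deposited table lists 12.5 RPKM for it. Its proximal markers summed to 180.1 RPKM and its late proximal markers to 265.9 RPKM (mTAL medians 162.8 and 1.296 RPKM). OMCD replicate 7 had 42.4 RPKM of Slc22a8 and 0.329 RPKM of Slc22a6, beside 831 RPKM of summed proximal and 0.797 RPKM of late proximal markers (OMCD medians 14.6 and 0.797 RPKM). With any 1 of these 3 libraries left out, the same number of 5 members was called between the proximal and the other segments.

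**Figure D4:**
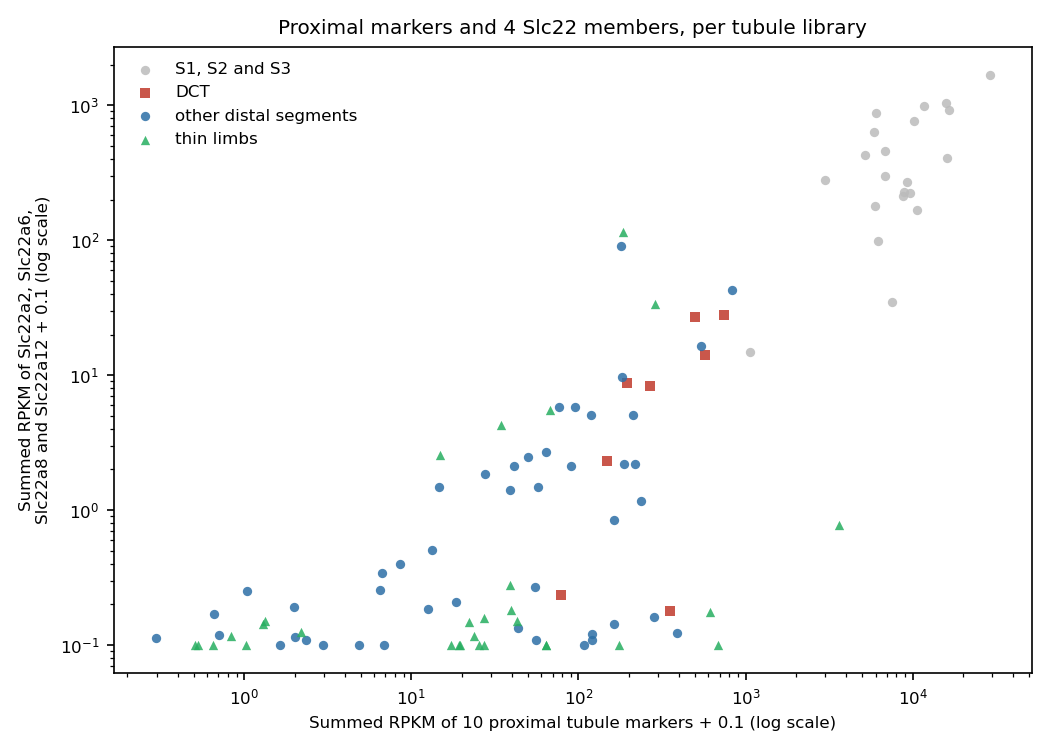
Each point is 1 tubule library; the horizontal axis is the summed RPKM of 10 proximal tubule markers and the vertical axis that of Slc22a2, Slc22a6, Slc22a8 and Slc22a12, both plus 0.1 on log scales. Proximal libraries (grey) fill the upper right, and 30 of the 84 others lie at 1 RPKM or more on the vertical axis.

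Slc22a8 was also seen in the DCT. It measured 2.16, 6.99, 22.6, 0.0901, 23.9, 0, 12.5 and 8.10 RPKM in the 8 DCT libraries, so that 6 of 8 reached 1 RPKM. Slc22a6, its neighbour on the chromosome and its companion in S1 and S2, measured 0.00696, 1.24, 3.33, 0.0185, 0.129, 0.0163, 1.49 and 0.0542 RPKM in the same libraries. The ratio of Slc22a8 to Slc22a6 ran from 4.86 to 310 in the 7 DCT libraries with both above 0 (median 8.36), from 0.926 to 17.4 in S1 (median 1.395) and from 0.356 to 3.37 in S2 (median 1.28). The highest S1 ratio belonged to replicate 4. In the 6 CCD libraries with both genes above 0 the ratio ran from 1.205 to 275 (median 2.39). In the second table the median ratio was 4.64 in DCT (2.55 to 172), 0.709 in S1 and 0.702 in S2. In 3 DCT libraries Slc22a8 was at or above 1 RPKM while Slc22a6 was below it, as in 3 CCD libraries and 1 library each of cTAL, CNT and OMCD. Proximal markers summed to 78.4 to 738 RPKM in DCT, and their part in the Slc22a8 level was not tested.

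**Figure D5:**
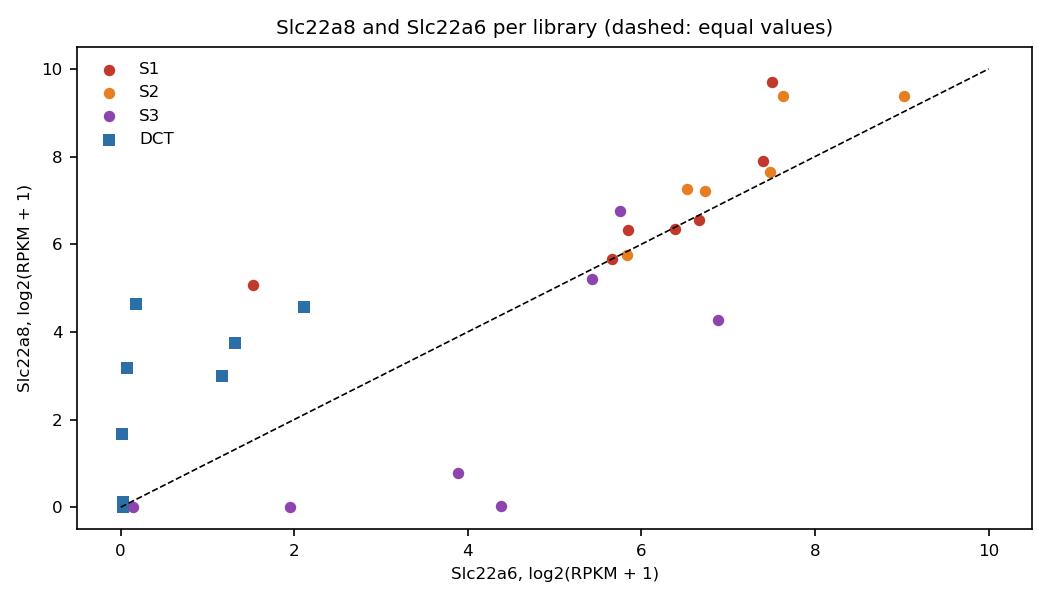
Levels of Slc22a8 against Slc22a6 on log2(RPKM + 1) axes, 1 point a library, for S1, S2 and S3 (7 libraries each) and DCT (8 libraries). The dashed line marks equal values. Libraries of S1 and S2 have ratios of 0.356 to 17.4 and lie on both sides of the line. The DCT libraries with Slc22a8 (up to 23.9 RPKM) lie above it, as do some libraries of S1 and S2.

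Slc22a4 and Slc22a5 were each present in some libraries of a segment and near 0 in others. Slc22a4 reached 1 RPKM in 4 of 7 cTAL, 3 of 7 mTAL, 3 of 8 DCT, 3 of 10 SDL, 2 of 9 LDLOM and 2 of 7 tAL libraries, with its highest value, 47.7 RPKM, in mTAL replicate 1, but in no library of LDLIM, CNT, CCD, OMCD or IMCD, where it did not pass 0.819 RPKM. Slc22a5 reached 1 RPKM in all 4 LDLIM libraries (3.19 to 22.8 RPKM), in 6 of 10 SDL, 5 of 7 S1, 5 of 7 S2, 4 of 7 S3, 4 of 7 cTAL, 4 of 8 IMCD, 3 of 6 CNT, 5 of 11 CCD, 4 of 9 LDLOM, 3 of 7 tAL, 2 of 8 DCT, 1 of 7 mTAL and 1 of 7 OMCD libraries. In S1 it had 92.4 and 92.8 RPKM in replicates 3 and 5 and 0 in replicate 7. The pooled SD within segments was 2.03 for Slc22a5, the largest of the 8 members, and 1.38 for Slc22a4.

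In the glomerulus the transporters of secretion were low, with Slc22a8 up to 3.75 RPKM. Relative to S1, Slc22a2, Slc22a6 and Slc22a8 were called lower in the glomerulus, 3 of 8, against 3.26% of 11456 genes tested, and 0 were called higher, against 40.6% of all genes. Slc22a6 measured 0.00997, 0.132, 0, 0 and 1.05 RPKM in the 5 glomeruli, against 1.87 to 180.2 RPKM in S1. It differed by -5.61 ± 0.77 (adjusted p = 1.5e-09, limma). Slc22a8 measured 0.0166, 3.75, 0, 0.223 and 3.21 RPKM in glomeruli, against 32.5 to 825 RPKM in S1, and differed by -5.86 ± 0.86 (adjusted p = 1.1e-08, limma). Slc22a2 did not pass 0.534 RPKM in glomeruli, overlapping with S1, and differed by -3.22 ± 0.79 (adjusted p = 5.7e-04, limma). Slc22a12 ran from 0.0327 to 1.08 RPKM in glomeruli, and its difference of -1.28 ± 0.64 was not called (adjusted p = 0.087, limma), but was without S1 replicate 4 (adjusted p = 0.044) or S1 replicate 7 (adjusted p = 0.043).

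Slc22a5 ran from 0.690 to 5.77 RPKM in glomeruli, against 0 to 92.8 RPKM in S1, and was not called at -1.26 ± 1.15, but was at -2.80 after quantile normalization and at -3.10 with the covariate. The scale of this comparison was uneven. Glomeruli had 8818 to 9483 genes at 1 RPKM, against 2066 to 5896 in S1, the median difference over all genes was 1.60, and the calls of 4654 genes higher and 373 lower became 1113 and 974 after quantile normalization and 1696 and 537 with the covariate. Podocyte markers were called higher in the glomerulus, 4 of 4 with a median difference of 7.52, and proximal markers lower, 8 of 10 with a median of -3.99.

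Under the water load only Slc22a5 was tested, since the other 7 members reached 1 RPKM in fewer than 4 of the 8 collecting duct libraries. It measured 1.03, 5.08, 10.4 and 5.04 RPKM in water-loaded CCD, against 12.6, 1.46, 12.7 and 5.76 RPKM in control CCD, so the groups overlapped. The difference was -0.46 ± 0.64 (adjusted p = 0.92, limma), and 0 members were called. Of the 8492 genes tested 0.153% were called, 13 in all, with 632 at an unadjusted p under 0.05, and without any 1 of the 8 libraries the number of calls was 0 to 7. Calls were 8 higher and 5 lower, 4 and 5 after quantile normalization and 5 and 6 with the covariate. With the replicate numbers as a replicate block 29 genes were called, and again 0 members. Among the members not tested, Slc22a6 had 0.0140, 0.373, 0.00717 and 1.98 RPKM in water-loaded CCD, against 45.8, 0.0969, 0.642 and 0.542 RPKM in control CCD. Control replicate 1 also had the highest Slc22a2 (14.1 RPKM) and Slc22a8 (5.38 RPKM) of the experiment, and its proximal markers summed to 1520 RPKM, against 64.6 to 147.5 RPKM in the other 7 libraries. Slc22a7 and Slc22a13 were at 0 in all 8.

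Among 14 further Slc22 names, 11 were in the table and 9 were tested. This list and those below were chosen with earlier results of these data known, so their counts are a description. The 9 had a median difference of 1.52. Of them 5 were called higher in the proximal tubule than elsewhere, against 6.87% of all genes, and 0 lower, against 15.4%. They included Slc22a18 (3.57 ± 0.51), Slc22a25 (3.14 ± 0.32) and Slc22a24 (1.54 ± 0.13), all by limma. Slc22a24 and Slc22a22 were lower in S1 than in S2, by -1.40 ± 0.29 and -1.87 ± 0.49, and Slc22a24 was also lower in S2 than in S3, by -1.63 ± 0.29. Both had a median of 0 RPKM in S1 and averaged 0.00242 and 0.0472 RPKM outside the proximal tubule. They had entered the test only through S2 and S3, where they are high, so their differences and calls are a description.

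Of 20 other organic ion and drug transporter names 14 were tested. In the proximal tubule 7 were called higher and 1 lower, against 6.87% and 15.4% of all genes. The highest differences were those of the phosphate and urate transporters Slc17a3 (5.39 ± 0.30) and Slc17a1 (4.11 ± 0.30), the organic anion transporter Slco1a6 (4.27 ± 0.37) and the brush border cation exporter Slc47a1 (4.03 ± 0.30). Slc47a1, which passes on what Slc22a2 takes up, averaged 47.3 ± 49.1 RPKM in proximal libraries and 0.190 ± 0.526 RPKM elsewhere (SD, n = 21 and 84). The 1 lower gene was Slco4a1 (-1.67 ± 0.30). Between S1 and S2, 3 of the 14 were called lower in S1 and 0 higher, against 0.46% and 0.135% of all genes. The 3 were Slco1a6 (-4.32 ± 0.81), Slc17a1 (-3.06 ± 0.65) and Slco1a1 (-2.64 ± 0.61). Slco1a1 had a median of 0 RPKM in S1 and averaged 0.182 RPKM outside the proximal tubule. It had entered the test through S2 and S3, so its call is a description. Between S2 and S3 1 was called, Slc17a1, higher in S2 by 3.27 ± 0.65, against 0.659% of all genes called higher in S2.

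Of 10 names of exchange partners and scaffolds 9 were tested, and 7 were called higher in the proximal tubule and 0 lower. Over all genes tested, 6.87% were called higher and 15.4% lower in this comparison, which also stands beside the 2 lists that follow. The largest differences were those of Pdzk1 (6.54 ± 0.36), a scaffold that binds Slc22a12 at the brush border, of Slc13a3 (4.86 ± 0.28), which supplies the dicarboxylates that Slc22a6 and Slc22a8 exchange, of the scaffold Slc9a3r1 (3.66 ± 0.52) and of the ascorbate transporter Slc23a1 (2.98 ± 0.32). Slc13a3, which also stands in the list of proximal markers, was lower in S1 than in S2 by -2.34 ± 0.62 and higher in S2 than in S3 by 3.01 ± 0.62, with a mean of 57.5 ± 64.8 RPKM in S1, 170 ± 160.5 in S2 and 24.8 ± 27.02 in S3 (SD, n = 7 each). Of 9 transcription factors, all tested, 3 were called higher in the proximal tubule and 0 lower, among them Hnf4a (4.05 ± 0.27) and Nr1i2 (1.12 ± 0.24). None of the 9 was called between proximal segments, by adjusted p in limma. Of 7 names of urate and carnitine enzymes 5 were tested, and Xdh, which makes urate, was called higher in the proximal tubule (2.22 ± 0.31) and 0 lower.

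The genes most like each member over the 14 segments were sought among 6655 genes whose geometric mean reached 5 RPKM in a segment. The measure was the overlap of both distributions over the segments, in percent, and has no test. The distribution of Slc22a2 overlapped by 98.1% with that of Cyp4a8 and 97.4% with Cyp4a2, with Serpinf2 between them. That of Slc22a12 overlapped by 97.2% with Akr1c12l1 and 95.4% with Slc21a4, that of Slc22a6 by 94.7% with Cyp2e1 and 94.5% with Slc7a9, and that of Slc22a8 by 94.3% with Gatm and 94.1% with Dgkg. Slc22a7 was nearest to Dhrs7 (94.3%) and Slco1a6 (94.0%), and Slc22a13 to Ust5r (95.0%) and Osgin1 (94.8%). For Slc22a5 and Slc22a4 the nearest genes reached only 83.7% (Ccdc115) and 80.1% (Hbb). Among the members themselves, the closest pairs were Slc22a2 with Slc22a12 (92.2%), Slc22a7 with Slc22a13 (90.0%) and Slc22a6 with Slc22a8 (86.8%), whereas Slc22a8 and Slc22a13 overlapped by 12.2%.

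The order of the members by level rests on the table used. The second deposited table, named by the authors as made without polyadenylation-site data, lists Slc22a6 at a median of 2.69 times, Slc22a12 at 2.52 times and Slc22a8 at 1.498 times its value in the first, over the libraries where it is above 0, and Slc22a2, Slc22a4 and Slc22a5 at 1.00 times. In S2 the mean of Slc22a8 was 268 RPKM and that of Slc22a6 was 164 RPKM in the first table, but 391.7 and 417.9 RPKM in the second. In S3 the mean of Slc22a2 was 306 RPKM and that of Slc22a12 was 121 RPKM in the first table, but 306 and 302 RPKM in the second. For all 8 members the calls between the proximal and the other segments and among S1, S2 and S3 were the same with the second table.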

How the data were processed

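RNA of microdissected rat renal segments had been sequenced as paired reads of 50 nt by a single-cell protocol, per the labels. Tools listed in the submitters' processing notes, with no role given, are HOMER, SAMtools, STAR 2.3.0-r192 and Trimmomatic 0.32, and the build is rn5. The authors deposited RPKM values per transcript, in a table made with polyadenylation-site data (used here), a second made without it and another of the water-load experiment. What those data changed in the first table is not stated by the labels. The 7 whole-kidney polyadenylation-site samples were not analysed here. Values of the second table for the glomerulus were not used here, since they correlated with the first table at r = 0.009 to 0.014, against 0.917 to 0.967 for tubule libraries.

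Of 17974 entries, 503 symbols had more than 1 transcript and kept that with the highest mean. Genes at 1 RPKM or more in at least 4 libraries were tested on log2(RPKM + 1) with limma 3.58.1 (R 4.3.3, with a mean-variance trend) and Benjamini-Hochberg adjustment over all genes of a fit. Calls needed an adjusted p under 0.05 and a log2 difference of at least 1, with no such limit for the water load. The proximal contrast is the mean of the S1, S2 and S3 means minus the mean of the other 11 segment means. The segment comparisons came from 1 fit of the 105 tubule libraries, and that of the glomerulus from a fit with its 5 libraries added. Each fit pools the spread of a gene over all its groups. Fits were tested on simulated data. Tables were handled in Python 3.11.15 with pandas 2.3.3. Groups followed the labels.

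Replicate numbers were taken to pair samples in the water-load experiment, where deviations of same-numbered libraries correlated at 0.209 to 0.313 in all 4 pairs, but not among S1, S2, S3 and glomerulus, with medians of -0.063 to 0.005. Of the 4 water-loaded libraries, 3 correlated most with the control of the same number. Between S1 and S2 the correlation was 0.724 for replicate 6 and 0.167 for replicate 4. The text names the 8 members in every comparison, up to 4 called genes of a list, largest difference first, and the genes most like each member. Likeness is the sum over segments of the smaller of both genes' shares, a share being the geometric mean of RPKM + 1, less 1, in a segment over its sum. Members and lists were chosen with earlier results of these data known. Alternatives were another pseudocount, no filter, quantile normalization, the number of detected genes as a covariate, the replicate block, the second table (for the shares and ratios of members added after the data were seen), leaving out shallow or single libraries and fitting 2 groups alone. Some genes of the lists and the promoter motifs are not reported here.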

Additional observations from a re-analysis of the deposited data

Results flagged for a closer look

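Single libraries lay far from the rest of their group in 24 of 73 groups of 4 to 10 libraries examined. The rule was the gap to the nearest library over the range of the group on the log2 scale, with a nominal 5% of groups. Some groups hold many libraries at 0, as Slc22a13 in S1 with 6 of 7. The nominal share cannot be taken as that of chance here, and nothing is read from the count. For Slc22a2 the high libraries were SDL replicate 8 at 113 RPKM, LDLOM replicate 9 at 22.9 RPKM, cTAL replicate 5 at 13.5 RPKM and DCT replicate 5 at 3.72 RPKM. For Slc22a12 they were LDLOM replicate 9 at 10.4 RPKM and cTAL replicate 5 at 1.03 RPKM, the same libraries as for Slc22a2, and cTAL replicate 5 also led for Slc22a7 at 2.80 RPKM.

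Slc22a6 was high in mTAL replicate 3 at 90.3 RPKM, in control CCD replicate 1 at 45.8 RPKM and in glomerulus replicate 5 at 1.05 RPKM. It was low in S1 replicate 4 at 1.87 RPKM and in S2 replicate 4 at 0.0429 RPKM. Slc22a8 was low in that S2 library too, at 0.0152 RPKM, and high in OMCD replicate 7 at 42.4 RPKM. Slc22a4 stood out in SDL replicate 6 at 27.7 RPKM, S3 replicate 7 at 13.4 RPKM and glomerulus replicate 1 at 1.62 RPKM.

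Slc22a5 stood out in OMCD replicate 2 at 23.6 RPKM, mTAL replicate 7 at 8.05 RPKM and DCT replicate 8 at 5.40 RPKM. Slc22a13 did so in S2 replicate 5 at 8.71 RPKM, LDLOM replicate 7 at 2.32 RPKM and S1 replicate 6 at 1.53 RPKM, and Slc22a7 in S2 replicate 7 at 5.40 RPKM.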

How the results depend on the processing

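Of the values recomputed under another setting, 762 kept their direction and side of the threshold, 24 changed sign, 15 gained and 13 lost a call; the cause was not tested. With a pseudocount of 0.1, members called between S1 and S2 numbered 1 and all genes called 38, against 2 and 66, and the water load gave 0 genes against 13, as it did with no filter. Without libraries under 2500 genes, S1 against S2 gave 1 member and 37 genes, and Slc22a8 turned to -0.69. Fits of 2 groups alone hold fewer samples and take the spread from those groups only. They gave 0 members and 6 genes for S1 against S2, 0 and 10 for S2 against S3, and 1 and 62 for S1 against S3. For Slc22a8 the log2 SD was 3.196 in S2 and 2.891 in S3, against a pooled SD of 1.46 over all segments. For Slc22a13 it was 0.507 in S1 and 2.216 in S3, against a pooled 0.69. For the glomerulus against S1, 5 members and 2087 genes were called after quantile normalization and 5 and 2233 with detected genes as a covariate, against 3 and 5027. Quantile normalization and the covariate turned Slc22a4 in the proximal comparison to 0.06 and 0.09, and Slc22a7 in the glomerulus to -0.07 and -0.20. Quantile normalization turned Slc22a8 between S1 and S2 to -0.05.

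With the replicate block, which pairs samples in the water-load experiment alone, 29 genes were called there, Slc22a7 in the glomerulus turned to -0.00, and no member's call changed. Where numbers do not pair samples, the block gave 64 genes for S1 against S2, 94 for S2 against S3, 211 for S1 against S3 and 5351 for the glomerulus.

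Leaving out single libraries gave -0.58 to 0.13 for Slc22a4, -1.35 to 0.39 for Slc22a6, -0.98 to 0.58 for Slc22a8 and -0.64 to 0.10 for Slc22a13 between S1 and S2. Between S2 and S3 it gave -0.98 to 0.05 for Slc22a2 and -0.27 to 0.76 for Slc22a4, and -0.35 to 0.39 for Slc22a4 between S1 and S3. For the glomerulus it gave -0.46 to 0.02 for Slc22a4, -0.00 to 0.01 for Slc22a7 and -0.22 to 0.00 for Slc22a13, and under the water load -1.0 to 0.01 for Slc22a5, with 0 to 7 genes called. Members called were 2 to 2 between S1 and S2, 2 to 4 between S2 and S3, 5 to 6 between S1 and S3, 3 to 4 for the glomerulus and 5 to 5 for the proximal comparison, where mTAL 3, SDL 8 and OMCD 7 were left out after their values were seen. With no counts in the tables, values near 0 cannot be told from failed capture in shallow libraries.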
